A study of Mus musculus with 20 samples.

Results

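Microglia of mice labelled C4-/- were compared with microglia of WT mice, gene by gene, in 9 of the 20 RNA-seq libraries of the series. All libraries titled C4-/- (5 mice) and all titled WT (4 mice) were taken, and nothing measured entered that choice. Every mouse was at postnatal day 40, and the cells came from frontal cortex. For each mouse, 1000 cells with high CD11b and low CD45 were sorted, and the amplified cDNA was turned into 1 library. The genotype labels read wild type and C4-/-, with no treatment. Strain, sex, litters and the part of the gene removed in C4-/- could not be read from the labels. The other 11 libraries, labelled hC4A/- (5), hC4B/- (4) and hC4A/A (2) for human C4 sequence, entered only the estimate of the spread between libraries and a few values given below.

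Complement C4 is cleaved by the protease of the C1 complex once C1q has bound a surface, and its larger fragment is deposited there and helps to form the enzyme that cleaves C3. Fragments of C3 and C4 tag synapses in the developing brain, and microglia, the resident macrophages of the brain, carry the complement receptor CD11b with which tagged material is taken up. In the mouse the C4 component is encoded by C4b, and the neighbouring C4a encodes the sex-limited protein. The comparison asks which microglial transcripts differ when C4 is lost.

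The 9 libraries held between 1143140 and 2412018 gene counts each, and between 11844 and 27178 genes with a count. C4-/- 3 stood apart from the other 8: it detected the 27178 genes, and its rank correlation with them across genes was 0.514 to 0.634, against 0.674 to 0.766 among the other 8. It was also the library with the largest share of reads assigned ambiguously, 5.86% against 0.978% to 2.35%. Its results are therefore also given without it. Genes of satellite-like sequence took 15.4% to 53.2% of the counts. Mean gene counts per library, rounded, were 1889000 in WT and 1439000 in C4-/- (two-sided exact permutation test, p = 0.0635, n = 4 and 5), and none of 9 such library measures passed adjustment over the 9 (smallest adjusted p = 0.571). The smallest p this permutation test can give is 0.0159, so 1 measure differing alone could not have passed, and a difference in depth remains possible. The 4 WT libraries were deposited under a naming pattern of their own, so genotype and any series of preparation or sequencing cannot be told apart. Counts scaled to library size are given throughout as CPM (edgeR's counts-per-library-size unit, with TMM factors).

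Levels per length of exon showed microglia in both groups. Over 21998 protein-coding genes ranked by mean CPM per kilobase of exon, the receptor-like gene Fcrls stood at rank 15 in WT and 21 in C4-/-. The complement gene C1qa ranked 30 and 25, the fractalkine receptor gene Cx3cr1 73 and 66, and the purine receptor gene P2ry12 83 and 88. Sall1, a transcription factor gene of microglial identity, had the lowest rank in WT of the microglia markers checked, 827, and ranked 517 in C4-/-. Each of these markers lay above 96.2% of protein-coding genes in both groups.

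C4b itself was higher in the libraries labelled as lacking C4. Its counts in WT libraries 1 to 4 were 0, 0, 2 and 0, and in the libraries labelled C4-/- 1 to 5 they were 104, 7, 157, 7 and 46. Every library labelled C4-/- thus held more C4b counts than any WT library. The levels were 0, 0, 1.53 and 0 CPM against 59.8, 6.53, 103, 3.76 and 30.6 CPM, a mean of 0.383 ± 0.767 CPM (SD, n = 4) against 40.7 ± 41.4 (SD, n = 5). Pooled over the libraries the ratio was 170 (exact 95% interval 46.7 to 1411, counting error only). The log2 fold change of C4-/- over WT was 6.85 (SE 1.59, edgeR unadjusted p = 0.000152, adjusted p = 0.529), and 5.89 without C4-/- 3. DESeq2 gave C4b an adjusted p of 0.0123. Over all alternative settings of edgeR, DESeq2 and limma voom its adjusted p ran from 0.000158 to 0.910. All 11 libraries with human C4 labels were also above every WT library, at 2.69 to 351 CPM. A count for a whole gene carries no position within it, so whether these reads lie in a deleted part was not tested. The libraries with most C4b counts within C4-/-, C4-/- 3, 1 and 5, also detected the most genes of that group, 27178, 23912 and 18884. WT 3, the WT library with C4b counts, detected the most genes in WT, 18586, with 2 counts against 46 in C4-/- 5. Among libraries with human C4 labels, hC4B/- 3, hC4A/A 2 and hC4B/- 2 held 428, 271 and 230 C4b counts and detected 30176, 30907 and 30041 genes. The remaining libraries with human C4 labels held 4 to 45 C4b counts and detected 11348 to 18753 genes. Whether C4b counts go with the number of genes detected was not tested. Exchanged labels, reads from outside a deleted part, a higher level of the transcript and broader detection of genes cannot be told apart here. Exchanged labels would turn every direction. Directions below are therefore those of the libraries labelled C4-/- against those labelled WT.

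C4b and C4a are near-identical copies that lie on the same strand, and the files list reads mapping to several places apart from the genes. Their longest annotated transcripts were identical at 96.1% of 5367 aligned bases. Of all 50-base words in the C4b transcripts 65.4% did not occur in those of C4a, and of all 100-base words 84.8% did not. The coding stretch with the most differences shows what separates the reads. It lies in exon 21 of 41 of C4b (GRCm38, chr17:34735430-34735489, minus strand) and in exon 21 of 41 of the C4a transcript (chr17:34816086-34816145, minus strand). It is printed 5′ to 3′ from the GENCODE transcripts, with the 13 bases of 60 that differ in capitals.
C4b: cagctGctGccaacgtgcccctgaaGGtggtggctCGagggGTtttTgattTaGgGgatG
C4a: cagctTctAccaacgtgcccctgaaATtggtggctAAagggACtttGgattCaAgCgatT
C4a remained near 0 in both groups, with 0, 0, 2 and 0 counts in WT and 1, 0, 2, 0 and 2 in C4-/-. As assigned by the counting, the reads in the libraries labelled C4-/- fell to C4b and hardly to its copy.

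Across the genome no gene passed the adjusted threshold with edgeR. Of 12680 genes tested with edgeR's quasi-likelihood method, 0 had an adjusted p under 0.05 (0.00%), and the smallest adjusted p was 0.529. At an unadjusted p under 0.05 there were 730 genes higher in the libraries labelled C4-/- (5.76%) and 354 lower (2.79%). DESeq2 passed 24 genes (0.270%), 16 higher (0.180%) and 8 lower (0.0901%) of 8883 genes with an adjusted p, and limma voom passed 0. Fitted on the 9 libraries alone, DESeq2 passed 21 (0.313%). Levels did not overlap between the groups for 113 genes higher in all C4-/- libraries (0.891%) and 66 lower (0.521%), and without C4-/- 3 for 190 (1.50%) and 98 (0.773%). Random assignment of the 9 libraries would separate a gene without ties at a rate of 0.0159, both directions together, and more often with fewer libraries. These counts are therefore not read as an excess, and separation of the groups describes the single genes below without being a test. The log2 fold change was above 0 for 60.9% of genes and below for 39.1%. Its median over all genes was 0.33 and became 0.07 without C4-/- 3, after which 430 genes were higher (3.56%) and 471 lower (3.90%) at an unadjusted p under 0.05, with 0 adjusted calls. With C4-/- 3 kept, the median was 0.03 when fitted on the 9 libraries alone (7089 genes tested) and 0.02 under a stricter low-count filter. The median of 0.33, against which list medians are set below, thus depends on the low-count genes kept. Because no gene passed the adjusted threshold in the main edgeR fit, the values below describe these 9 libraries. The plot of fold change against level shows that the widest fold changes lay among genes of low level.

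**Figure D1:**
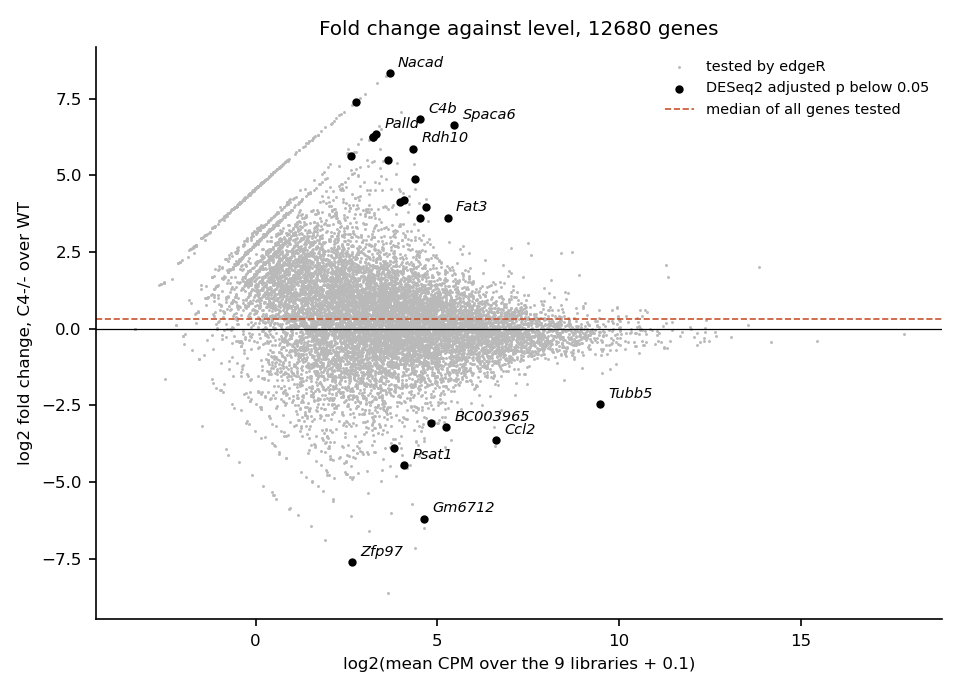
Each point is 1 of the 12680 genes tested, with log2 of the mean CPM over the 9 libraries plus 0.1 on the x axis and the log2 fold change of C4-/- over WT on the y axis. Black points are the 24 genes that DESeq2 passed, and the dashed line marks the median of all genes, 0.33, with Ccl2 and Tubb5 the most abundant of the black points below 0.

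Among abundant transcripts the clearest separation of the groups was in Ccl2, which encodes the chemokine that attracts monocytes through CCR2. Its levels were 228, 130, 276 and 166 CPM in WT libraries 1 to 4 and 25.3, 14, 4.59, 31.7 and 3.99 CPM in C4-/- libraries 1 to 5. The lowest WT library was thus above the highest C4-/- library. The mean was 200 ± 64.8 CPM (SD, n = 4) in WT and 15.9 ± 12.4 (SD, n = 5) in C4-/-. The log2 fold change was -3.64 (SE 0.89, edgeR unadjusted p = 0.000279), -3.47 without C4-/- 3, and between -4.05 and -3.40 when any 1 of the 9 libraries was left out. DESeq2 gave an adjusted p of 0.0123. All 11 libraries with human C4 labels also lay below every WT library, at 0.731 to 80.3 CPM.

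Other chemokines did not share the size of that difference. Of 17 chemokine genes listed, 7 were tested, 3 with a log2 fold change above 0 and 4 below, with a median of -0.18 against 0.33 over all genes (0.07 without WT 1). Ccl2 alone had an unadjusted p under 0.05 by edgeR, on the lower side (2.79% of all genes). Ccl3, a ligand of CCR1, was at 13.9 ± 9.71 CPM in WT and 25.5 ± 5.64 in C4-/-. Ccl4, a related chemokine gene, was at 15.6 ± 7.99 and 13.3 ± 14.2 CPM. Tnf and Il1b, the classical inflammatory cytokines, were near 0 in both groups, with 5 and 1 counts in all for Tnf and 13 and 4 for Il1b in WT and C4-/-.

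Tubb5, a beta-tubulin and thus a subunit of microtubules, was the most abundant of the genes that DESeq2 passed. Tubb5 lies on chromosome 17, 1.09 Mb from C4b, and whether that position bears on its level was not tested. It measured 1009, 1038, 2369 and 791 CPM in WT libraries 1 to 4 and 369, 244, 49.8, 88.6 and 442 CPM in C4-/- libraries 1 to 5. The groups did not overlap, and C4-/- 3 was the lowest of all 9. The log2 fold change was -2.45 (SE 0.79, edgeR unadjusted p = 0.00395), -2.36 without C4-/- 3 and -1.99 without WT 3, and the DESeq2 adjusted p was 0.0293. All 11 libraries with human C4 labels were below the lowest WT library as well, at 22 to 251 CPM. Of 16 tubulin genes 9 were tested, 4 above 0 and 5 below, 2 of them lower at an unadjusted p under 0.05 by edgeR (2.79% of all genes), with a median of -0.02 that became 0.33 without WT 3. The other of these 2, the alpha-tubulin gene Tuba1c, had its reads in WT 2, with 40.6 CPM there and at most 1.33 CPM in the other 8. Levels of other alpha-tubulin genes overlapped. Tuba1a was at 7.18 ± 3.70 CPM in WT and 11.4 ± 9.28 in C4-/-, and Tuba1b at 15 ± 8.30 and 17.6 ± 9.13.

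**Figure D2:**
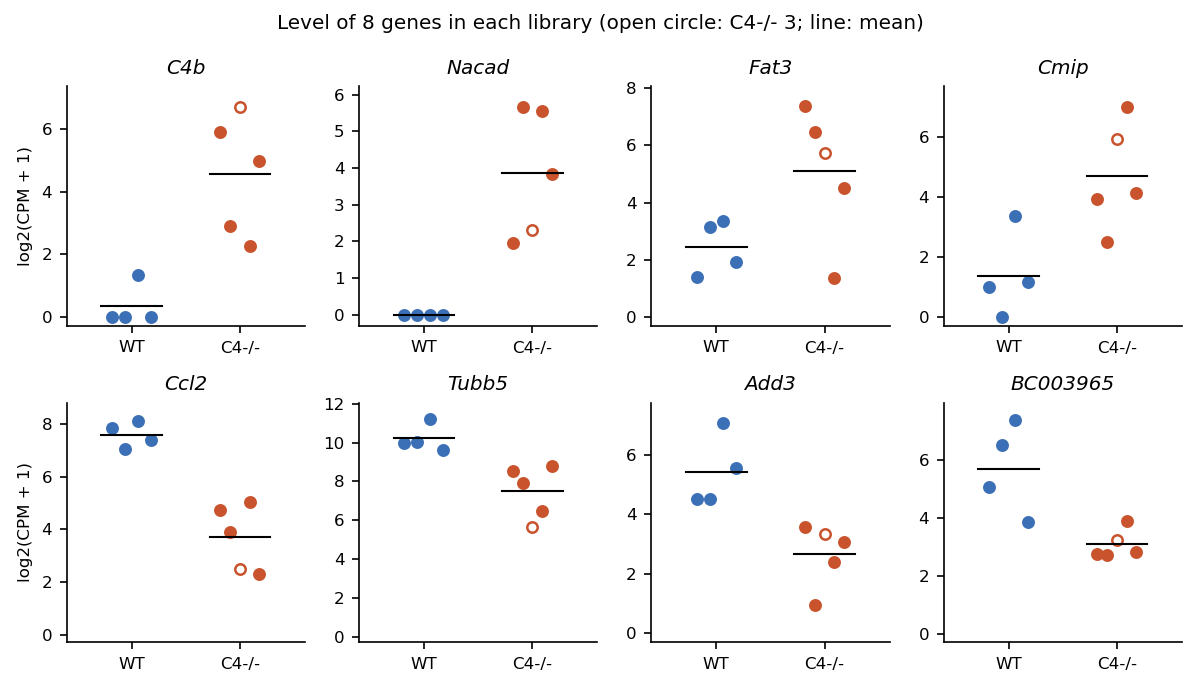
Levels of 8 genes as log2(CPM + 1) on the y axis, with 1 point per library in WT (blue) and C4-/- (orange) and a line at the mean of these values. The open circle is C4-/- 3. The groups do not overlap for C4b, Nacad, Ccl2, Tubb5 and Add3, and they overlap by 1 C4-/- library for Fat3, Cmip and BC003965.

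Several other leading genes were lower in the libraries labelled C4-/-. Add3, which encodes an adducin of the membrane skeleton, measured 21.7, 22.1, 134 and 46.3 CPM in WT and 10.9, 0.932, 9.18, 4.30 and 7.32 CPM in C4-/-. Its log2 fold change was -3.07 (SE 0.83, edgeR unadjusted p = 0.000831), with a DESeq2 adjusted p of 0.0329, and -2.18 without WT 3. As3mt, the arsenite methyltransferase, also separated the groups, with 23.7 to 130 CPM in WT against 3.93 to 17.2 in C4-/- (log2 fold change -2.98, SE 0.93). BC003965, a gene without an established function in these labels, was at 74.8 ± 67.8 CPM in WT and 7.96 ± 3.56 in C4-/-, where C4-/- 4 at 14 CPM passed WT 4 at 13.4. The Fc receptor-like gene Fcrl1 was at 153 ± 142 and 22 ± 23.1 CPM.

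Some of the lower genes rested on single WT libraries. Mecr, an enzyme of mitochondrial fatty acid synthesis, had 157 CPM in WT 3 and at most 18.3 in the other 8 libraries, and its log2 fold change of -4.05 became -1.35 without WT 3. Ino80c, a subunit of the INO80 chromatin remodeller, had 223 CPM in WT 3 and at most 7.87 CPM elsewhere, and its log2 fold change of -4.16 became 0.28 without WT 3. Anxa2, a membrane-binding annexin, had 186 CPM in WT 2, 33.3 in WT 4 and at most 2.30 in the other 7, and its log2 fold change of -6.50 became -4.35 without WT 2. Rbm19, an RNA-binding protein gene, and Vps36, a subunit of the ESCRT-II sorting complex, were at 45.7 ± 58.9 and 55.2 ± 61.1 CPM in WT and at 3.18 ± 2.32 and 8.98 ± 2.64 in C4-/-. Their log2 fold changes were -3.80 and -2.61, and -2.53 and -1.56 without WT 3.

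Genes on the higher side were mostly near 0 in WT. Nacad, related to the nascent polypeptide-associated complex, had 0 counts in all 4 WT libraries and 2.88, 49.4, 3.93, 45.7 and 13.3 CPM in C4-/- libraries 1 to 5, which is at least 59.7-fold higher against a floor of 3 counts over the WT group. It had the smallest p of all genes (edgeR unadjusted p = 4.9e-05, DESeq2 adjusted p = 0.0005), and 10 of the 11 libraries with human C4 labels were above the WT group. Palld, encoding the actin-associated protein palladin, had 1 count in the WT group and 20.7, 47.6, 2.62, 9.67 and 7.32 CPM in C4-/-, a pooled ratio of 127 (exact 95% interval 22.4 to 5067, counting error only). Spaca6, a sperm gene needed for fusion with the egg, was at 1.34, 0, 1.53 and 0 CPM in WT and 181, 122, 9.18, 81.1 and 2.00 in C4-/-. Rdh10, an enzyme of retinoic acid synthesis, was at most 1.53 CPM in WT and at 2.30, 57.8, 2.62, 114 and 2.00 CPM in C4-/-. The groups did not overlap for these 4 genes, yet 3 of the 5 C4-/- libraries held no more than 2.62 CPM of Rdh10.

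Among genes with overlapping levels, Fat3, a giant cadherin, was at 1.67, 7.83, 9.20 and 2.84 CPM in WT and 166, 86.7, 51.8, 1.61 and 22 in C4-/-. Cmip, an adaptor protein gene, was at 1.00, 0, 9.20 and 1.22 CPM in WT and 14.4, 4.66, 59.6, 125 and 16.6 in C4-/-. DESeq2 gave adjusted p values of 0.0329 and 0.0361 for these 2 genes, and edgeR log2 fold changes of 3.63 (SE 1.08) and 3.99 (SE 1.24). Cmip ranged from 3.10 without C4-/- 4 to 5.67 without WT 3. Ap1b1, a subunit of the AP-1 clathrin adaptor, was at 14.9 ± 7.70 CPM in WT and 80.9 ± 61.9 in C4-/- (log2 fold change 2.44, and 1.81 without C4-/- 3). Il15ra, the alpha chain of the interleukin 15 receptor, was at 9.08 ± 8.27 and 64.6 ± 52.9 CPM (log2 fold change 2.84). Kctd5, Gpatch11 and Ankrd40 had log2 fold changes of 4.55, 3.51 and 2.65, each with its highest level in C4-/- 2. Without C4-/- 2 these were 3.67, 2.95 and 2.00, and Gpatch11 was at 5.22 without WT 2. Wsb2, an adaptor of ubiquitin ligases, had 160 CPM in C4-/- 4 and at most 15.1 elsewhere, so that its log2 fold change of 4.11 became 1.94 without that library.

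Of the 24 genes passed by DESeq2, 8 lay on chromosome 17, the chromosome of C4b, which holds 635 of the 12680 genes tested. Those 8 were C4b, Nelfe, Spaca6, Zfp97, Tubb5, BC003965, Gm6712 and Gm26873, the last 2 named after their values were seen. Groups that do not overlap made up 2.83% of the genes tested there, the highest share of any chromosome, against 0.408% to 2.24% on the 18 other autosomes and X. At an unadjusted p under 0.05 by edgeR the share on chromosome 17 was 9.13%, against 8.55% of all genes. Both directions were present, with 10 genes above and 8 below in all C4-/- libraries. Of the 8 genes, 4 (Zfp97, Gm6712, Gm26873 and Spaca6) start between positions 17121415 and 17827158, far from C4b. Nelfe lies 107 kb and Tubb5 1090 kb from C4b, the latter just outside the window of 1 Mb used below. In the stretch from 10 to 20 Mb, looked at after these genes were seen, the share with an unadjusted p under 0.05 by edgeR was 18.2% of 44 genes tested. From 30 to 40 Mb, which holds C4b, it was 9.35% of 139. Over the other stretches of 10 Mb it ran from 3.57% of 28 genes to 33.3% of 6. No test of position was made.

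The genes next to C4b lay on both sides of 0. Within 1 Mb of C4b lay 195 genes, of which 72 were tested, 50 with a log2 fold change above 0 and a median of 0.56. Without C4-/- 3 the median was 0.37. At an unadjusted p under 0.05 by edgeR, 6 neighbours were higher (5.76% of all genes; Nelfe, Notch4, Atf6b, Zbtb12, Prrc2a and Gm17705) and 3 were lower (2.79% of all genes; Tap1, Psmb9 and Hspa1a), all 9 listed after their values were seen. Without C4-/- 3 these counts were 1 and 2. Nelfe, a subunit of the negative elongation factor that pauses RNA polymerase II, was at 1.00, 0.712, 3.83 and 0.813 CPM in WT and 29.9, 58.7, 5.90, 1.61 and 50.6 CPM in C4-/-. Its log2 fold change was 4.20 (SE 1.11, edgeR unadjusted p = 0.000672, DESeq2 adjusted p = 0.0123). Notch4, a Notch receptor of vessels, did not overlap between the groups, at 1.42 to 11.5 CPM in WT and 12.4 to 85.9 in C4-/-. Its log2 fold change of 2.44 became 1.62 without C4-/- 3. Atf6b, a transcription factor of the unfolded protein response, and Prrc2a, an RNA-binding protein gene, were led by the same library, with log2 fold changes of 3.00 and 2.16 that became 1.65 and 0.90 without it. Tap1, a chain of the peptide transporter of class I antigen presentation, had 146 CPM in WT 3 and at most 17 CPM in the other 8 libraries, and its log2 fold change of -2.73 became 0.19 without WT 3. Psmb9, an immunoproteasome subunit, was at 58.3 ± 60.8 CPM in WT and 17.6 ± 8.01 in C4-/- (log2 fold change -1.71, and -0.71 without WT 3).

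**Figure D3:**
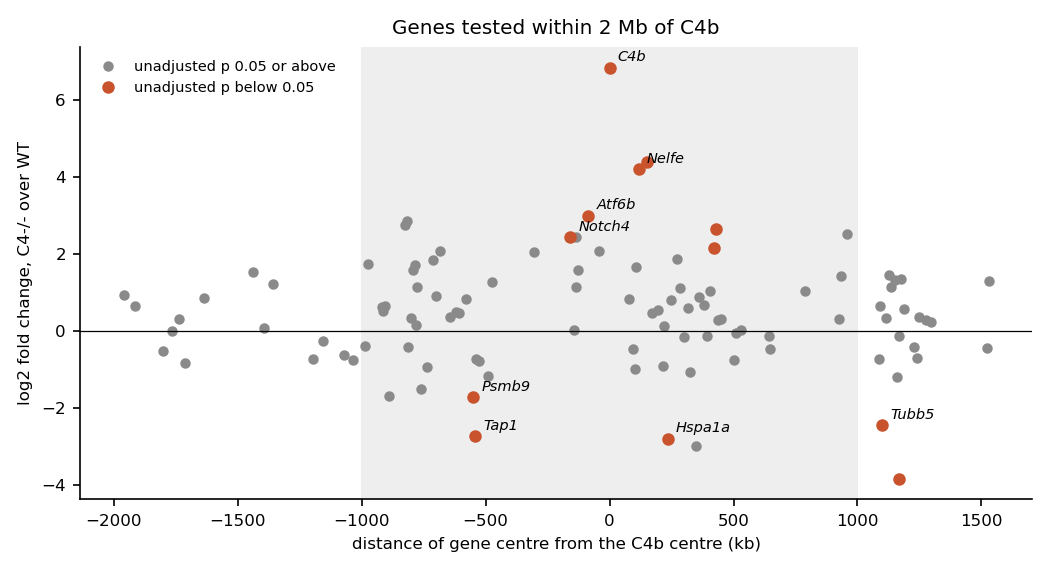
Log2 fold change of C4-/- over WT (y axis) of each tested gene against its distance from C4b in kilobases (x axis), with the window of 1 Mb to either side in grey. Orange points have an unadjusted edgeR p under 0.05, and they lie both above and below 0, with C4b the highest at 6.85.

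Further along chromosome 17, Zfp97 and Fpr2 had counts in every WT library and none in the C4-/- group. Zfp97, a zinc finger gene, had 0.334, 45.6, 7.67 and 2.03 CPM in WT libraries 1 to 4 and 0 counts in all 5 C4-/- libraries, at least 25.1-fold lower against a floor of 3 counts over the C4-/- group (DESeq2 adjusted p = 0.0293). Fpr2, a formyl peptide receptor of phagocytes, had 16.4, 91.1, 3.83 and 0.406 CPM in WT and 0 counts in the C4-/- group, at least 57.5-fold lower, with a DESeq2 adjusted p of 0.178. WT 2 held most of both. Spaca6, higher in C4-/-, starts at position 17827158 of the same chromosome (GRCm38) and Fpr2 at 17887824, so neighbours there differed in opposite directions. On chromosome 9, Mmp8, a neutrophil collagenase gene, was at 8.34 and 69.0 CPM in WT 1 and WT 2, at 0 in WT 3 and WT 4, and had 1 count in the C4-/- group, a ratio of WT over C4-/- of 115 (exact 95% interval 20.3 to 4581, counting error only).

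Of the lower genes that DESeq2 passed, Psat1 and Gcsh were picked out after their values were seen. Psat1, the phosphoserine aminotransferase of serine synthesis, was at 11.7, 12.1, 95.8 and 24.0 CPM in WT and 1.15, 0, 2.62, 3.22 and 0.666 CPM in C4-/-. The groups did not overlap, and all 11 libraries with human C4 labels were below every WT library. Gcsh, the H protein of the glycine cleavage system, was at 37.7, 49.8, 5.37 and 23.2 CPM in WT and 1.73, 0, 0, 1.07 and 6.66 CPM in C4-/-, where C4-/- 5 passed WT 3, and 4 of the 11 libraries with human C4 labels were below every WT library. DESeq2 gave both an adjusted p of 0.0293.

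Levels of the C1q genes overlapped between the groups. C1q is the recognition part of the classical pathway, and microglia are its main source in the brain. C1qa was at 718 ± 325 CPM in WT and 793 ± 484 in C4-/-, C1qb at 937 ± 319 and 1124 ± 582, and C1qc at 683 ± 364 and 707 ± 348. Of 13 classical complement genes 7 were tested, 6 above 0 and 1 below, with a median log2 fold change of 0.26 that became -0.07 without WT 2 and 1.86 without WT 3. C4b was the 1 of these 7 that was higher at an unadjusted p under 0.05 by edgeR (5.76% of all genes). C3, the target of the C4-containing enzyme, did not exceed 3.56 CPM in any library. Of 20 receptors and regulators 12 were tested, 4 above 0 and 8 below, with a median of -0.22 that became 0.06 without WT 3, and 1, Cd46, had an unadjusted p under 0.05 by edgeR, on the higher side (5.76% of all genes). Itgam, which encodes CD11b, a chain of complement receptor 3 and a marker used in the sort, was at 324 ± 82.0 CPM in WT and 183 ± 85.4 in C4-/-, with overlapping groups (log2 fold change -0.82, edgeR unadjusted p = 0.239). Cd46, a regulator that inactivates deposited C3b and C4b, was at most 0.767 CPM in WT and had 81.6 CPM in C4-/- 4, and its log2 fold change of 5.26 became 2.60 without that library. C5ar1, the receptor for C5a, was at 360 ± 233 and 183 ± 86.7 CPM (log2 fold change -0.97, and -0.41 without WT 3).

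Homeostatic microglia genes showed no common direction. All 30 listed were tested, 19 above 0 and 11 below with a median of 0.11, and 11 above and 19 below with a median of -0.13 without C4-/- 3. P2ry12 was at 570 ± 112 CPM in WT and 529 ± 118 in C4-/-, Cx3cr1 at 1274 ± 604 and 1278 ± 335, and Tmem119 at 293 ± 130 and 360 ± 147. None of the 30 had an unadjusted p under 0.05 by edgeR, against 8.55% of all genes in either direction. Golm1, a Golgi membrane protein gene, came nearest, at 53.4, 57.7, 59.8 and 132 CPM in WT and 76.5, 211, 174, 237 and 164 in C4-/- (log2 fold change 1.19, SE 0.59). Adgrg1, an adhesion receptor of microglia, owed its log2 fold change of 1.50 largely to C4-/- 3 and stood at 0.41 without it. Among 16 lineage transcription factors tested, 6 were above 0 and 10 below. Etv5, an ETS factor, was at 283, 234, 251 and 249 CPM in WT and 171, 122, 36.7, 136 and 248 in C4-/-, with C4-/- 5 inside the WT range and a log2 fold change of -0.83 (SE 0.62).

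Genes of phagocytic and disease-linked states lay on both sides of 0. Of 14 genes of TREM2 and ITAM signalling tested, which pass lipid and debris signals into the cell, 11 were above 0 and 3 below, with a median of 0.32. Trem2 itself was at 265 ± 44.8 CPM in WT and 312 ± 127 in C4-/-. Plcg2, the phospholipase downstream of it, did not overlap between the groups, at 31.7, 18.5, 29.1 and 28.8 CPM in WT and 100, 45.7, 92.4, 36.0 and 33.3 in C4-/- (log2 fold change 1.18, SE 0.67, and 0.76 without C4-/- 3). Of 22 disease-associated microglia genes 18 were tested, 11 above 0 and 7 below, with a median of 0.15 that became -0.08 without C4-/- 3. Apoe, a lipid carrier of that state, was at 183 ± 84.4 and 146 ± 161 CPM. Lysozyme, encoded by Lyz2, was at 70.6 ± 45.0 and 25.7 ± 12.8 CPM (log2 fold change -1.45, and -0.89 without WT 2). Of 31 phagocytosis and lysosome genes tested, 15 were above 0 and 16 below, with a median of -0.10. Without C4-/- 3 there were 10 above and 21 below, with a median of -0.22 against 0.07 over all genes, and without WT 3 the median was 0.28.

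Activation genes are switched on within minutes to hours of a stimulus. Of 10 AP-1 genes tested, 5 were above 0 and 5 below, with a median of -0.40 that became 0.10 without WT 3, and 2 were lower at an unadjusted p under 0.05 by edgeR against 2.79% of all genes. Fosl2, a FOS-family subunit, was at 68.1, 116, 316 and 132 CPM in WT and 96.1, 40.1, 17, 26.9 and 46.6 in C4-/-, where C4-/- 1 passed WT 1 (log2 fold change -1.80, SE 0.70). Fos, the classical immediate early gene, was at 52.2 ± 40.6 and 13.7 ± 9.12 CPM (log2 fold change -1.92, SE 0.92, and -1.42 without WT 2). Of 24 other immediate early genes tested, 10 were above 0 and 14 below, and 2 were higher at an unadjusted p under 0.05 by edgeR (5.76% of all genes). These 2, Dusp2 and Ier5l, had 0 counts in WT and 17 and 15 in C4-/-. The median was -0.21 and became 0.15 without WT 1. The summed level of all listed members did not overlap between the groups, at 2770 to 3282 CPM in WT and 949.7 to 2733 CPM in C4-/-, and most of it came from Btg1 and Btg2. Btg2 was at 1144 ± 367 CPM in WT and 417 ± 356 in C4-/-, with overlapping groups. Rgs1, a brake on chemokine receptor signalling, was at 13, 27.0, 103 and 47.9 CPM in WT and 8.63, 1.86, 9.83, 8.59 and 15.3 in C4-/- (log2 fold change -2.42, SE 0.86).

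The NF-kB list held members in both directions. Of 16 tested, 9 were above 0 and 7 below, with a median of 0.24, and without C4-/- 3 there were 5 above and 10 below of 15, with a median of -0.10. At an unadjusted p under 0.05 by edgeR 2 were higher (5.76% of all genes) and 1 was lower (2.79%). Nfkbid, an atypical inhibitor-like regulator, was at 30.7, 24.9, 65.9 and 28.8 CPM in WT and 4.03, 14, 9.83, 1.07 and 1.33 in C4-/-, without overlap (log2 fold change -2.64, SE 1.06), and all 11 libraries with human C4 labels were below every WT library. Nfkbie, an IkB inhibitor, was at 1.90 ± 2.83 and 11.6 ± 7.88 CPM (log2 fold change 2.66, SE 1.21, and 4.46 without WT 3). Traf1, an adaptor of TNF receptors, had 0 counts in WT and 11 in C4-/-. Of 17 inflammatory cytokine and sensor genes tested, 9 were above 0 and 8 below, and without C4-/- 3 there were 6 above and 10 below of 16. Icam1, an adhesion molecule, was at 52.4, 47.0, 36.8 and 39.0 CPM in WT and 5.18, 4.66, 28.8, 7.52 and 35.9 in C4-/-, without overlap (log2 fold change -1.41, SE 0.79). Il6 had 123 CPM in WT 3 and at most 8.63 CPM elsewhere, and its log2 fold change of -3.16 became 0.03 without WT 3.

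Among housekeeping groups, ribosomal protein genes lay most to one side. Of 76 tested, 69 were above 0 and 7 below, with a median of 0.49 against 0.33 over all genes, and 0.50 against 0.07 without C4-/- 3. Fitted on the 9 libraries alone it was 0.40 against 0.03. Without WT 2 the median of the list was 0.13 against 0.26 over all genes, and with the replicate number as a block it was 0.07 against 0.21, so the order of list and all genes turned. Of the 76, 1 was higher at an unadjusted p under 0.05 by edgeR (5.76% of all genes), Rpl24, with 1 count in the WT group and 29 in the C4-/- group. Rps21 was at 16.9 ± 4.70 CPM in WT and 37.6 ± 18.6 in C4-/- (log2 fold change 1.15, SE 0.76). Of 74 nuclear genes of oxidative phosphorylation tested, 53 were above 0 and 21 below, with a median of 0.28 that became -0.08 without C4-/- 5. Of 33 proteasome genes 21 were above 0 and 12 below, and Psmc1, an ATPase of the regulatory particle, was at 97.2 ± 116 and 13.5 ± 9.76 CPM (log2 fold change -2.84, and -1.61 without WT 3). Of 26 interferon response genes tested, 14 were above 0 and 12 below. Oasl2 was at most 1.53 CPM in WT and at 34.5, 1.86, 3.93, 1.61 and 5.32 CPM in C4-/-, whereas Mx1, an antiviral GTPase gene, was at 15.7 ± 15.2 and 1.86 ± 1.65 CPM. Of 12 cell cycle genes tested, 7 were above 0 and 5 below with a median of 0.15, and without C4-/- 3 there were 4 above and 8 below with a median of -0.64. At an unadjusted p under 0.05 by edgeR 3 were higher (5.76% of all genes) and 1 was lower (2.79%). Mcm3, Mcm6 and Mcm7, subunits of the replicative helicase, were the 3, and Pcna, the sliding clamp of replication, was the 1. Mcm7 was at 3.36 ± 4.33 CPM in WT and 32.2 ± 38.8 in C4-/- with overlapping groups, and the log2 fold change of Pcna, -2.07, became -0.57 without WT 2. Olfactory and vomeronasal receptor genes, which microglia are not known for, had 77 of 1459 tested, 64 above 0 and 13 below, with a median of 1.10 that became 0.49 without C4-/- 3. Fitted on the 9 libraries alone, 2 of them were tested.

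**Figure D4:**
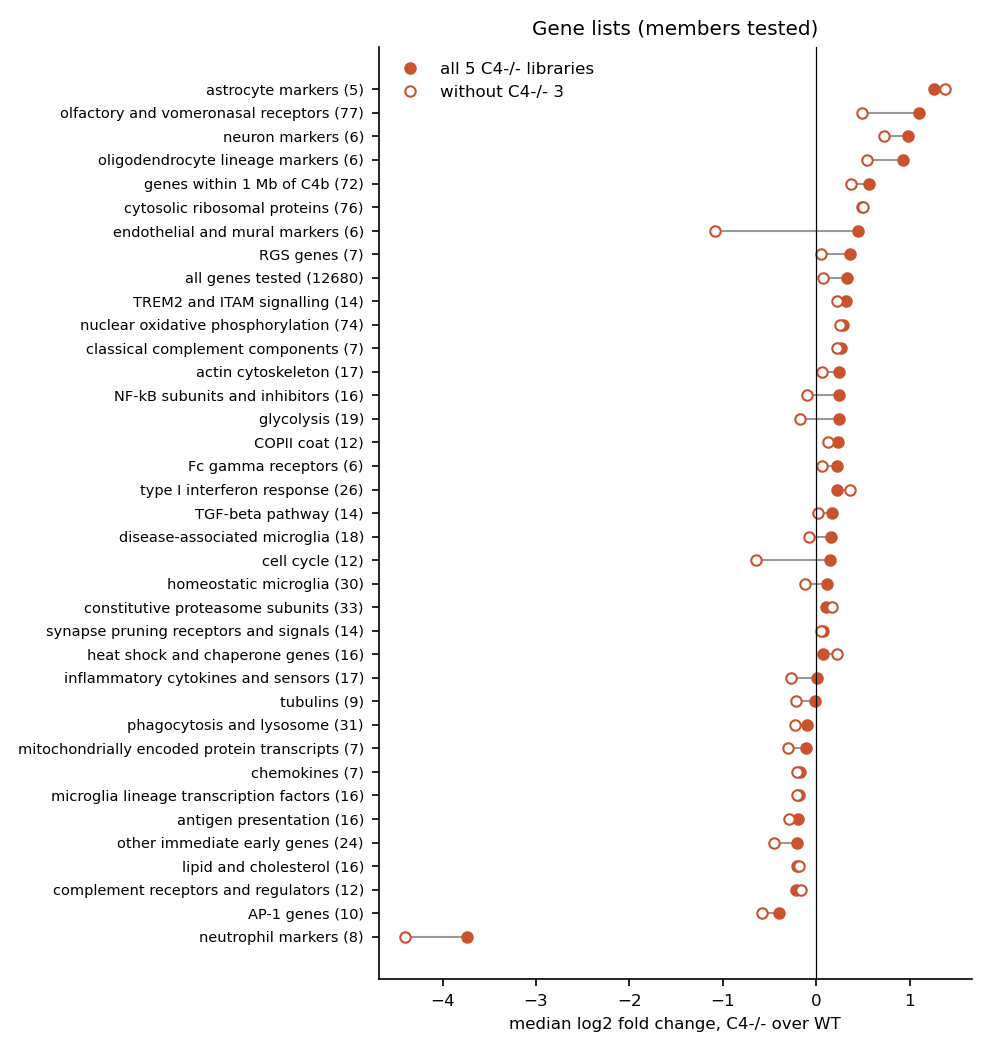
Median log2 fold change of C4-/- over WT (x axis) for gene lists with at least 5 members tested (y axis), with all 5 C4-/- libraries (filled) and without C4-/- 3 (open). The lists of satellite-like genes and sex-linked transcripts are left out, and all genes tested are drawn as a row of their own. Neutrophil markers lie lowest at -3.74 and -4.40, and astrocyte markers highest at 1.25 with all libraries.

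Markers of other cells in the sort were measured beside these results. Of 14 neutrophil markers 8 were tested, all 8 below 0 (39.1% of all genes) and 7 of them at an unadjusted p under 0.05 by edgeR (2.79%). Their summed level was 129, 1438, 204 and 102 CPM in WT libraries 1 to 4 and 150, 0.932, 12.5, 0 and 3.33 CPM in C4-/- libraries 1 to 5. The 4 WT libraries and C4-/- 1 thus held these transcripts, and the other 4 C4-/- libraries held few or none. S100a9, a calprotectin chain, was at 52.4, 589, 106 and 43.9 CPM against 67.9, 0, 0.655, 0 and 0 CPM. The median of the list was -3.74, -2.58 without WT 2 and -7.18 without C4-/- 1. Among WT libraries S100a8, S100a9, Lcn2, Ngp, Camp, Ltf and Mmp8 were all highest in WT 2. The 8 members tested are thus not separate observations, and the list was chosen with earlier results of these data known. The shares over all genes are therefore no test of the list. Ccl2 in C4-/- 1 was 25.3 CPM, against 3.99 to 31.7 in the other C4-/- libraries and 130 to 276 in WT. Tubb5 in C4-/- 1 was 369 CPM, against 49.8 to 442 in the other C4-/- libraries and 791 to 2369 in WT. In bulk libraries fewer cells of a type and less RNA per cell cannot be told apart, and the part of such cells in the other differences was not tested.

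Neuron, astrocyte and oligodendrocyte markers leaned to the higher side in C4-/-. The lists hold 16, 10 and 11 genes. Above 0 were 6 of 6 neuron, 5 of 5 astrocyte and 5 of 6 oligodendrocyte markers tested, with medians of 0.98, 1.25 and 0.93 against 0.33 over all genes, where 60.9% were above 0. Fitted on the 9 libraries alone, 2 of each list were tested, with medians of 0.38, 0.79 and 0.21 against 0.03. In the main fit 1 neuron marker (Elavl3) and 1 oligodendrocyte marker (Cspg4) were higher at an unadjusted p under 0.05 by edgeR (5.76% of all genes). Elavl3 had 0 counts in WT and 8 in C4-/-, 6 of them in C4-/- 3, and Cspg4 had 1 and 14 counts. The astrocyte median was 0.11 without C4-/- 1. Summed neuron markers were at 14.6 to 61.8 CPM in WT and 22.6 to 117 in C4-/-. Summed astrocyte markers were at 321 to 630 and 121 to 754 CPM, most of it from the glutamate transporter gene Slc1a3 at 405 ± 136 and 426 ± 244 CPM. Oligodendrocyte lineage markers summed to 111 to 167 CPM in WT and to 281, 241, 55.7, 177 and 364 CPM in C4-/- libraries 1 to 5, so that every C4-/- library but C4-/- 3 was above all WT libraries. The part of such cells in the other differences was not tested. Endothelial and mural markers summed to 9.34 to 66.8 and 3.76 to 36.7 CPM. Homeostatic microglia genes, for comparison, summed to 21163 to 37999 CPM in WT and 15243 to 40385 in C4-/-.

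**Figure D5:**
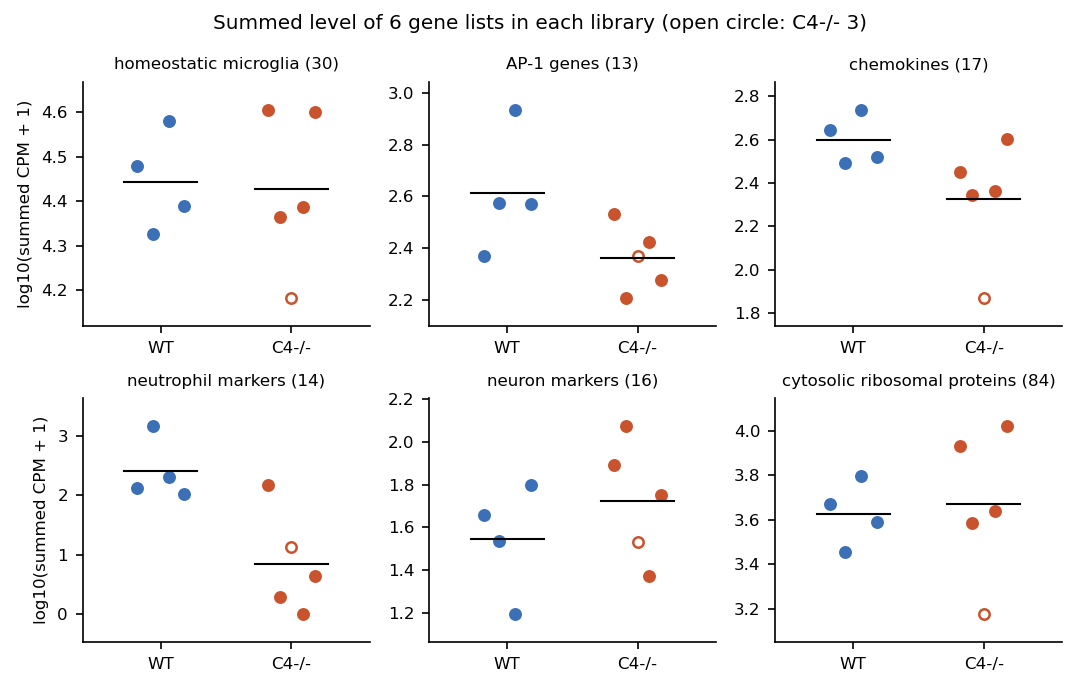
Summed CPM of 6 gene lists on the y axis as log10(summed CPM + 1), with 1 point per library in WT (blue) and C4-/- (orange, open circle for C4-/- 3). Neutrophil markers reach 1438 CPM in WT 2 and 0 CPM in C4-/- 4, while homeostatic microglia genes overlap between the groups.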

How the data were processed

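RNA was measured in 20 libraries, of which 9 are compared here. Per the file headers and labels, the authors deposited counts of reads per gene for each library, and the submitters' processing notes name STAR, edgeR and GRCm38, without versions. The annotation release and read filters could not be read from them. The unstranded count column was used, so antisense and overlapping genes cannot be told apart, and the N_ lines for unmapped, multimapping, no-feature and ambiguous reads were left out of library sizes. Genes were filtered by filterByExpr on genotype (12680 tested), scaled with TMM and fitted with edgeR 4.0.16 quasi-likelihood (robust, all 20 libraries, 15 residual degrees of freedom), with Benjamini-Hochberg adjustment at 0.05. Alternatives used DESeq2 1.42.0 and limma 3.58.1 in R 4.3.3. All 3 tools were tested on simulated counts with known changes, where DESeq2 made the most false calls and edgeR the fewest. The spread of those counts was edgeR's own estimate or a fixed value, so this order need not hold for the real libraries. How many of the known changes each tool recovered is not given here. With 4 against 5 libraries the smallest two-sided exact permutation p is 0.0159. Depth was 1143140 to 2412018 counts, and intervals cover counting error only. Replicates are single mice, and same-group libraries differed beyond sampling noise (chi-square per degree of freedom 29.7 to 93.9). Named genes were C4b, the 10 smallest p values per direction among genes with a mean of at least 20 CPM, the 3 leading on-off genes per direction, and 2 to 4 genes per list. Genes and lists were chosen with earlier results of these data known.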

Additional observations from a re-analysis of the deposited data

Results flagged for a closer look

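In 56 of 236 groups of libraries checked, the highest library stood apart from the rest of its group by Dixon's criterion. Normally distributed values meet it by chance in about 1 group in 20, but CPM values are skewed. Where all other libraries of a group are at 0, as for Palld in WT, any count meets it. The 56 are therefore not read as an excess. Of these, 37 were in WT and 19 in C4-/-. No explanation was weighed. In WT 2 the values apart were Zfp97 at 45.6, Mmp8 at 69, Ngp at 144, Lcn2 at 140, Tuba1c at 40.6, S100a9 at 589, S100a8 at 243 and Pcna at 91.1 CPM. In the same library there were also C3 at 3.56, Il1b at 7.12, Camp at 159 and Ltf at 71.9 CPM. In WT 3 the values apart were C4b at 1.53, Psat1 at 95.8, Gm6712 at 197, Palld at 0.767, Nelfe at 3.83, Mecr at 157, Ino80c at 223 and Cmip at 9.2 CPM. In the same library there were also Tubb5 at 2369, Il6 at 123, Tap1 at 146, Nfkbid at 65.9, Nfkbie at 6.13, Psap at 166, Itgax at 0.767 and Gpr84 at 130 CPM. In the same library there were also C4a at 1.53, Cx3cr1 at 2174, Spi1 at 112, Irf8 at 1375 and Ctss at 9136 CPM. In WT 4 the values apart were Gm26873 at 8.53, Cspg4 at 0.406 and Golm1 at 132 CPM. In C4-/- 1 the values apart were Ngp at 8.05, Lcn2 at 12.1, S100a9 at 67.9, Oasl2 at 34.5, S100a8 at 33.4, Ndufb9 at 85.7 and Camp at 19.6 CPM. In C4-/- 3 the values apart were Mmp8 at 0.655, Prrc2a at 161, Psap at 681, Lrp1 at 1222 and Tnf at 0.655 CPM. In C4-/- 4 the values apart were Cd46 at 81.6 and Wsb2 at 160 CPM. In C4-/- 5 the values apart were Gcsh at 6.65, C1qc at 1300, Apoe at 430 and Nfkbia at 267 CPM. WT 1 held 2412018 gene counts, more than the other 3 WT libraries. In C4-/- 3, 5.86% of reads were ambiguous.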

How the results depend on the processing

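In the main edgeR fit 0 genes passed in either direction. DESeq2 passed 16 higher and 8 lower, DESeq2 on the 9 libraries alone (chosen after seeing the data) 14 and 7, and edgeR without the low-count filter 10 and 16. All other settings passed 0. The numbers of genes whose groups do not overlap, 113 higher and 66 lower, became 37 higher under a stricter filter. Leaving out 1 library gave 139 to 426 higher and 98 to 167 lower, as fewer libraries overlap less often. Without WT 3, Ino80c became 0.28, Il6 0.033 and Tap1 0.19 (log2 fold change), reversing their direction. Over leaving out each library, Ino80c ranged from -4.55 to 0.28, Il6 from -3.75 to 0.033 and Tap1 from -3.52 to 0.19. Of 1650 refits of 77 genes under 23 alternatives, 1605 kept direction and side of the threshold, 42 newly passed and 3 reversed. The replicate block passed 0 genes. Replicate numbers were not shown to pair mice, since same-number correlations were -0.03 to 0.08 against -0.12 to 0.06 for other pairs, although 3 of 4 WT libraries correlated best with their own number. Depth limits genes near 0 in a group, where 1 library can set the fold change.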
